A study of Mus musculus with 12 samples.

Results

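The cytoplasmic ribosomal protein genes were the 76 of the 50978 rows in the deposited expression table whose symbol was Rpl or Rps followed by a number, with or without a final a or x, or was Rplp0, Rplp1, Rplp2 or Rpsa. Pseudogenes, the mitochondrial ribosomal proteins and symbols with other endings, among them paralogues and Rps3a1, were not members. The list held 43 proteins of the large subunit, 3 proteins of its stalk and 30 proteins of the small subunit, and every member was found in the mouse annotation.

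Cytoplasmic ribosomes join a small subunit, which reads the mRNA, to a large subunit, which forms the peptide bond. Their proteins are made in matched amounts from genes scattered over the genome, and the mRNAs are short, abundant and stable. Most of these mRNAs start with a 5' terminal oligopyrimidine (TOP) tract, through which mTOR signalling controls their translation, so the mRNA level and the amount of protein made can move apart. Embryonic stem cells (ESCs) divide fast and so make ribosomes at a high rate.

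RNA was measured in 3 lines derived from E14, a mouse ESC line, all grown with 15% serum and LIF, with 2 libraries a line from separate dishes. The study's methods describe triplicates, whereas 2 libraries a line were analysed here. Parental ESCs carried no transgene. ESC + PRAMEL7 WT expressed HA/FLAG-tagged Pramel7, the substrate receptor that binds the ubiquitin ligase component CUL2, and ESC + PRAMEL7 ΔN expressed the same protein without its N-terminus, given in the labels as a deletion of 50 amino acids, while the study's text gives a shorter one. Both transgenes were driven by the CAG promoter at the Rosa26 locus on chromosome 6 and the lines came from single cells, so a difference between lines cannot be told apart from a difference between clones. The p-values measure the spread between dishes of one line and not between independent lines.

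Each library held between 17929681 and 19489440 reads on genes, and levels are given as CPM, reads scaled to a mean total of 1000000 a library. The Pramel7 mRNA was at 0.262 and 0.221 CPM in the parental libraries, at 52.0 and 47.0 in ESC + PRAMEL7 WT and at 404 and 438 in ESC + PRAMEL7 ΔN. The transgenes thus differed in level as well as in sequence, and these cannot be told apart in any comparison of the 2 lines. The 10 ESC markers summed to between 5678 and 6688 CPM in the 6 libraries, but single markers moved. By limma at an adjusted p under 0.05, Utf1 was higher in ESC + PRAMEL7 WT than in parental ESCs. Nanog, Zfp42 and Tdgf1 were lower there, so 1 rose and 3 fell, beside 8.69% and 16.3% of all genes. In ESC + PRAMEL7 ΔN 1 rose (Dppa5a) and 0 fell, beside 6.3% and 13.6%. The 6 fibroblast markers summed to between 21.5 and 56.6 CPM, were lowest in ESC + PRAMEL7 WT and consisted mostly of Thy1, with Lum listed at 0 in every library. Markers of primitive endoderm (5.85 to 9.78 CPM), mesoderm (1.87 to 3.32 CPM) and blood (2.78 to 8.65 CPM) summed to under 10 CPM. Those of neural cells summed to between 165 and 273 CPM, nearly all from Tubb3, and were highest in ESC + PRAMEL7 WT. The part of these markers in the results below was not tested.

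RefSeq promoters of GRCm38.p6 were found for 56 of the 76 members, and not for Rplp1, Rps29 or Rpl32. They are shown because the start of a TOP mRNA is a pyrimidine tract that the promoter itself encodes. The window ran from 40 bases before to 20 bases after the annotated start, and capitals mark CTTTC or CTTCC on the strand of the gene. First come members named for their rises in a PRAMEL7 line or between them, as far as a promoter was found. Then come those that fell, then the stalk genes and Rpsa.
Rps4x, chrX:102189372-102189431, minus strand: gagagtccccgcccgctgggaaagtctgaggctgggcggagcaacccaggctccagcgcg
Rpl34, chr3:130730379-130730438, minus strand: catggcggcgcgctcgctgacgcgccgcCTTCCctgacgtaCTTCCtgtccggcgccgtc
Rps21, chr2:180257339-180257398, plus strand: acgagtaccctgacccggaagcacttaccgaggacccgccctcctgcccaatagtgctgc
Rpl35, chr2:39005112-39005171, minus strand: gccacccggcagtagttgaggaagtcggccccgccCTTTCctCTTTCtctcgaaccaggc
Rps27, chr3:90213629-90213688, minus strand: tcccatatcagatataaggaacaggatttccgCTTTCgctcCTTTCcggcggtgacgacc
Rpl19, chr11:98026670-98026729, plus strand: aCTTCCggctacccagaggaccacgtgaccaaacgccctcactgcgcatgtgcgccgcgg
Rpl27, chr11:101442205-101442264, plus strand: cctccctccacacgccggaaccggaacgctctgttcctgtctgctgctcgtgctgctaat
Rplp0, chr5:115559427-115559486, plus strand: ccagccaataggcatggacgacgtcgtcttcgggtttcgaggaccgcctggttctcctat
Rplp2, chr7:141447611-141447670, plus strand: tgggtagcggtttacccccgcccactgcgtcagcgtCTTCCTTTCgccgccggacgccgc
Rpsa, chr9:120127726-120127785, plus strand: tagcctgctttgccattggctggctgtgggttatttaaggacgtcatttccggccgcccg

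In this window, 29 of the 56 member promoters (51.8%) held CTTTC or CTTCC, against 19.5% of all 27025 RefSeq promoters. A run of at least 8 pyrimidines stood in 29 of 56 (51.8%), against 24% of all promoters, and reached 18 bases in Rpl35. The longer motif CCGGAAG, the core of many ETS-family binding sites, was present on either strand between 250 bases before and 50 bases after the start in 22 of 56 (39.3%), against 9.12% of all promoters. TATAAA, on the strand of the gene in the shorter window, was found in 1 member (1.79%), against 2.91% of all promoters. Among those shown, members that rose and members that fell both occurred with and without the capitals. Rps4x, Rps21, Rplp0, Rpsa and Rpl27 had none, while Rpl19, Rpl34, Rpl35 and Rps27 had them. Rplp2, which passed the test in no comparison, had them too. A match is a description of these letters and depends on which start site RefSeq lists first.

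The members were among the most abundant mRNAs. All but Rpl24 passed the filter of more than 1 CPM in at least 2 libraries, so that 75 were tested, and 74 of these exceeded 100 CPM on average. Mean levels over the 6 libraries ran from 49.7 CPM for Rpl29 to 3081 CPM for Rpl4, with a median of 906. The median member mRNA was 729 bases long, against 2743 bases for all genes tested. Per kilobase of mRNA, levels ran from 85.3 to 3010 CPM with a median of 1238. Proteins of the ribosome are present in one copy each apart from the stalk proteins P1 and P2, whereas the counted levels of their mRNAs thus spanned a wide range. Whether reads that match several places in the genome were lost from these counts was not tested.

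Highest per kilobase were Rpl8, a protein close to the peptidyl transferase centre, with 3010 CPM, Rpl41, the shortest ribosomal protein, with 2903 CPM, and Rpl32 with 2776 CPM. Lowest of those tested were Rpl29 with 85.3 CPM, Rpl13a with 190 CPM and Rpl23a with 207 CPM. Reads were counted by exon without strand, and 37 members share exon bases with another annotated gene, so levels of such members are uncertain. For Rpl23a the shared part was 59.7% of its exon bases, with Tlcd1 on the opposite strand. For Rpl13a it was 29.4%, with Gm45713, which was listed at 0 in every library.

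Rpl24 (chr16:55966275-55971435, GRCm38) was the exception. Its row held 6 and 3 reads in the parental libraries, 8 and 9 in ESC + PRAMEL7 WT and 9 and 4 in ESC + PRAMEL7 ΔN, or between 0.165 and 0.504 CPM. Rpl24 is an essential protein of the large subunit, and 47.0% of its exon bases are shared on the same strand with Gm28037, which was listed at 0 in all libraries. Its values are printed as deposited and not read as its level, and it was left out of every test and count of calls below; the shares of reads include its few reads.

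Reads on the 76 members made up 6.65% and 7.22% of all reads on genes in the parental libraries, 8.20% and 8.61% in ESC + PRAMEL7 WT, and 7.45% and 7.40% in ESC + PRAMEL7 ΔN. Both ESC + PRAMEL7 WT libraries were above all others, and both ESC + PRAMEL7 ΔN libraries were above both parental ones. The means were 6.93 ± 0.405%, 8.41 ± 0.293% and 7.42 ± 0.0418% (SD, n = 2). With 2 libraries a line, an exact two-sided permutation test cannot give a p below 0.333, so no test is given for this share. In a bulk sample, a larger share in every cell and a larger fraction of cells with a high share cannot be told apart. Rows named as pseudogenes of these genes, 276 in all, held 0.0557%, 0.0871% and 0.0721% of reads on average in the 3 lines.

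**Figure D1:**
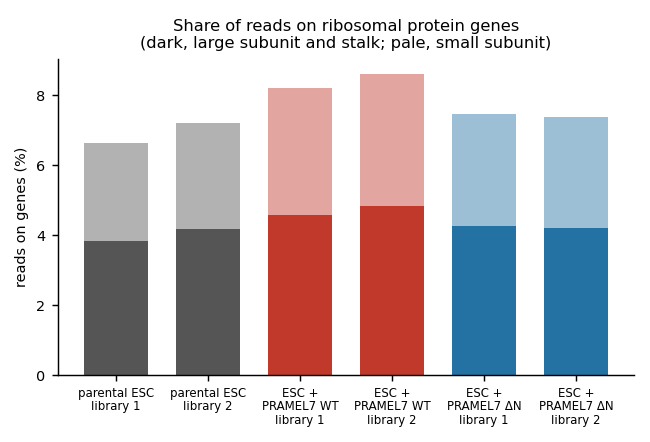
Percent of all reads on genes that fell on the 76 ribosomal protein genes, 1 bar a library, with the large subunit and stalk in the dark part and the small subunit in the pale part. The ESC + PRAMEL7 WT libraries reach 8.20% and 8.61%, the parental ones 6.65% and 7.22%.

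The first comparison asked which members changed with full-length PRAMEL7. Against parental ESCs, 26 of the 75 members tested rose in ESC + PRAMEL7 WT (34.7%), while 8.69% of all 12921 genes tested rose. None fell by limma at an adjusted p under 0.05, against 16.3% of all genes; 1 member, Rpl23, was lower at an unadjusted p under 0.05, and voom called 1 member lower. The median log2 fold change of the members was 0.29, against -0.08 over all genes tested, and 66 of the 75 members had a positive value. Mean CPM in ESC + PRAMEL7 WT was between 0.811 and 1.76 times the parental mean, with a median of 1.22 times. The changes were small, and Rps4x, Rplp1 and Rps29 also passed an absolute log2 fold change of 0.58 at an unadjusted p under 0.05 (3 of 75 members, with 4.65% of all genes), and 0 members passed that limit downwards, with 8.99% of all genes. For 58 members (77.3%) both ESC + PRAMEL7 WT libraries were above both parental ones, which held for 24.3% of all genes, and for 4 members (5.33%) both were below, against 39.9% of all genes.

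Both subunits took part. In the small subunit 13 of 30 members rose, with a median log2 fold change of 0.30, in the large subunit 11 of 42 rose, with a median of 0.22, and of the 3 stalk genes Rplp0 and Rplp1 rose.

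**Figure D2:**
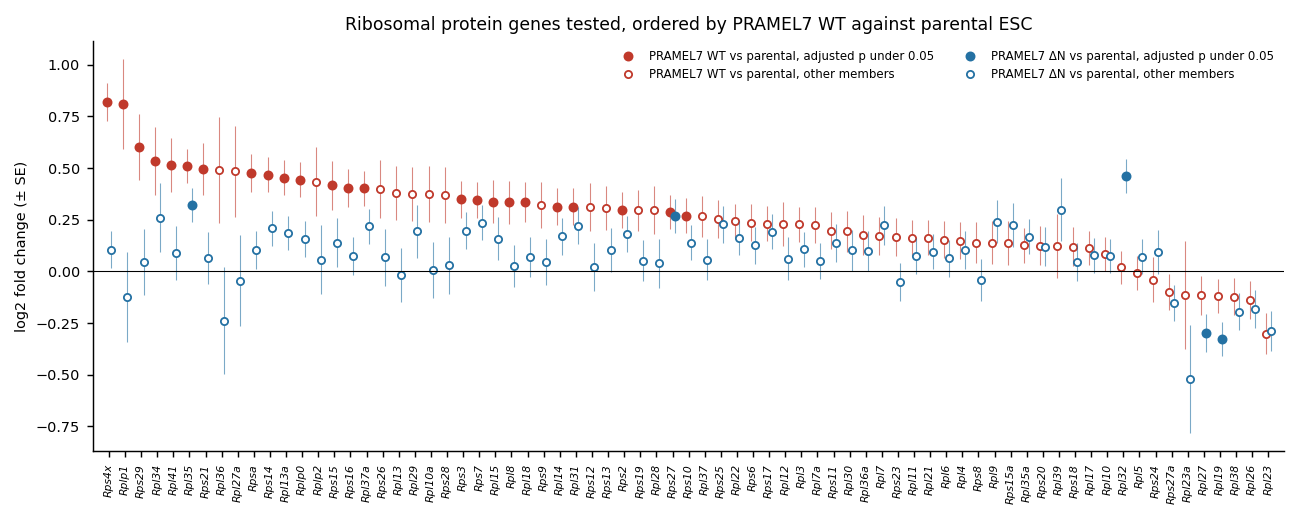
Log2 fold change against parental ESCs, with its SE, of 73 of the 75 members tested, in the order of their value in ESC + PRAMEL7 WT (red) with ESC + PRAMEL7 ΔN (blue) beside it. Filled points have an adjusted p under 0.05, which holds for 24 red and 5 blue points. The red values fall from 0.82 for Rps4x to -0.30 for Rpl23.

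Rps4x, the X-linked gene of a small-subunit protein (chrX:102184941-102189394, GRCm38), changed most. It was at 1870 and 1682 CPM in parental ESCs, 3146 and 3115 CPM in ESC + PRAMEL7 WT and 1900 and 1914 CPM in ESC + PRAMEL7 ΔN. The ESC + PRAMEL7 WT libraries lay far above the other 4, which lay close together. The log2 fold change in ESC + PRAMEL7 WT was 0.82 ± 0.09 (SE, adjusted p = 0.000842), and it passed the threshold under all 18 alternative settings. In ESC + PRAMEL7 ΔN it was 0.10 ± 0.09 (adjusted p = 0.461).

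Rplp1 (chr9:61913284-61914542) encodes P1, which with P2 and P0 forms the stalk that recruits elongation factors to the large subunit. It was at 777 and 1324 CPM in parental ESCs, 1530 and 2065 CPM in ESC + PRAMEL7 WT and 968 and 897 CPM in ESC + PRAMEL7 ΔN. Both ESC + PRAMEL7 WT libraries were above the other 4, the ESC + PRAMEL7 ΔN ones lay between the parental ones, and the parental libraries differed from each other by 0.77 on the log2 scale. The log2 fold change was 0.81 ± 0.22 (adjusted p = 0.0254), and it ranged from 0.42 to 1.19 when 1 library was left out. Rplp0 was tighter, at 1622 and 1632 CPM, then 2190 and 2237 CPM, then 1875 and 1756 CPM, with a log2 fold change of 0.44 ± 0.09 (adjusted p = 0.00669). Rplp2 was at 431 and 646 CPM in parental ESCs and 642 and 792 CPM in ESC + PRAMEL7 WT, where the lines overlapped, and at 549 and 548 CPM in ESC + PRAMEL7 ΔN. Its log2 fold change of 0.43 ± 0.17 did not pass the threshold (adjusted p = 0.0849).

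Rps29, a zinc-binding protein of the small subunit (chr12:69157722-69159186), was at 548 and 793 CPM in parental ESCs, 902 and 1109 CPM in ESC + PRAMEL7 WT and 696 and 663 CPM in ESC + PRAMEL7 ΔN. Here too the lowest ESC + PRAMEL7 WT library was above the highest parental one, and the parental libraries were far apart. The log2 fold change was 0.60 ± 0.16 (adjusted p = 0.024). Rpl34, of the large subunit, was at 216 and 206 CPM, then 301 and 312 CPM, then 315 and 203 CPM. It had a log2 fold change of 0.54 ± 0.16 (adjusted p = 0.0407). In ESC + PRAMEL7 ΔN the 2 libraries of Rpl34 fell on either side of the others, 1 near ESC + PRAMEL7 WT and 1 near parental ESCs.

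Rpsa, the small-subunit protein also known as the laminin receptor, was at 1791 and 1994 CPM in parental ESCs, 2613 and 2641 CPM in ESC + PRAMEL7 WT and 2075 and 1985 CPM in ESC + PRAMEL7 ΔN. It rose by a log2 fold change of 0.48 ± 0.09 (adjusted p = 0.00672). Among the other members that rose were Rpl8, Rpl13a, Rpl14, Rpl15, Rpl18, Rpl31, Rpl35, Rpl37a and Rpl41 of the large subunit. Of the small subunit, Rps2, Rps3, Rps7, Rps10, Rps14, Rps15, Rps16, Rps21 and Rps27 were among them. The log2 fold changes of these lay between 0.27 for Rps10 and 0.52 for Rpl41. Rpl13a, Rpl35 and Rps14 kept the call in 17 of 18 alternative settings, but Rpl8, Rpl18 and Rps10 in only 7.

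**Figure D3:**
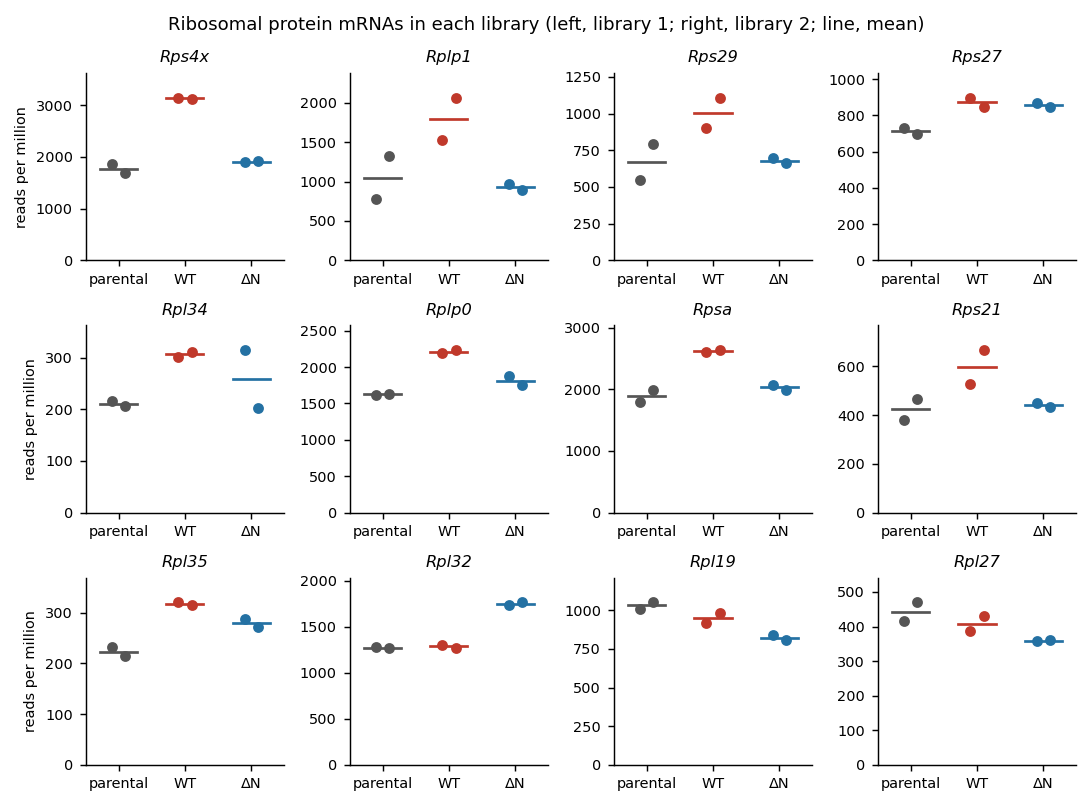
Level in CPM of 12 members in each library, with library 1 on the left, library 2 on the right and a line at the mean of each line of cells; every axis starts at 0. Rps4x stands at 3146 and 3115 CPM in ESC + PRAMEL7 WT, above the other 4 libraries, while Rpl32 is highest in ESC + PRAMEL7 ΔN with 1731 and 1767 CPM.

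Several members picked for their known roles did not pass the threshold. Rpl5 and Rpl11, which bind Mdm2 as part of the 5S particle, had log2 fold changes of -0.01 (adjusted p = 0.951) and 0.16 (adjusted p = 0.194). Rps6, the substrate of S6 kinase, had 0.24 (adjusted p = 0.0781), and Rps19, mutated in Diamond-Blackfan anaemia, had 0.30 (adjusted p = 0.0534). Rpl22 had 0.24 (adjusted p = 0.0558), and Rpl38, needed for translation of Hox mRNAs in the embryo, had -0.12 (adjusted p = 0.336). For Rpl11, Rps6, Rps19 and Rpl22 both ESC + PRAMEL7 WT libraries were nonetheless above both parental ones.

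The number of calls rested on few libraries. Without either ESC + PRAMEL7 WT library it dropped to 3 (library 1 left out) or 5 (library 2 left out), and without parental library 2 it was 41, while the median log2 fold change stayed between 0.21 and 0.30. With each library corrected for GC content and mRNA length, 16 members rose and 4 fell, and the median was 0.13. The shares and the median of all genes under that correction are not given here. Across the 75 members, which share the same 4 libraries, Pearson's r of the log2 fold change was 0.39 with GC content and -0.10 with the log2 of mRNA length; the part of base composition in the result was not tested.

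The libraries of one line differed from each other for some members. Library 2 and library 1 differed by more than 0.3 on the log2 scale for 12 members in parental ESCs, for 6 in ESC + PRAMEL7 WT and for 5 in ESC + PRAMEL7 ΔN. Over all genes tested 29.2%, 10.2% and 12.3% differed by as much, larger shares than those of the 75 members. In parental ESCs library 2 was the higher one for 11 of the 12, led by Rpl36 (0.96), Rpl23a (0.91), Rplp1 (0.77), Rplp2 (0.58) and Rps29 (0.53). In ESC + PRAMEL7 WT it was the higher one for all 6, led by Rpl27a (0.73) and Rpl36 (0.44). Over all members the median difference was 0.09, 0.07 and -0.01 in the 3 lines. For the 28 members with mRNAs under 600 bases the parental median was 0.13, and for the other 47 it was 0.05. Rpl36, for example, was at 207 and 403 CPM in parental ESCs and 348 and 473 CPM in ESC + PRAMEL7 WT, and its log2 fold change of 0.49 did not pass the threshold (adjusted p = 0.187).

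**Figure D4:**
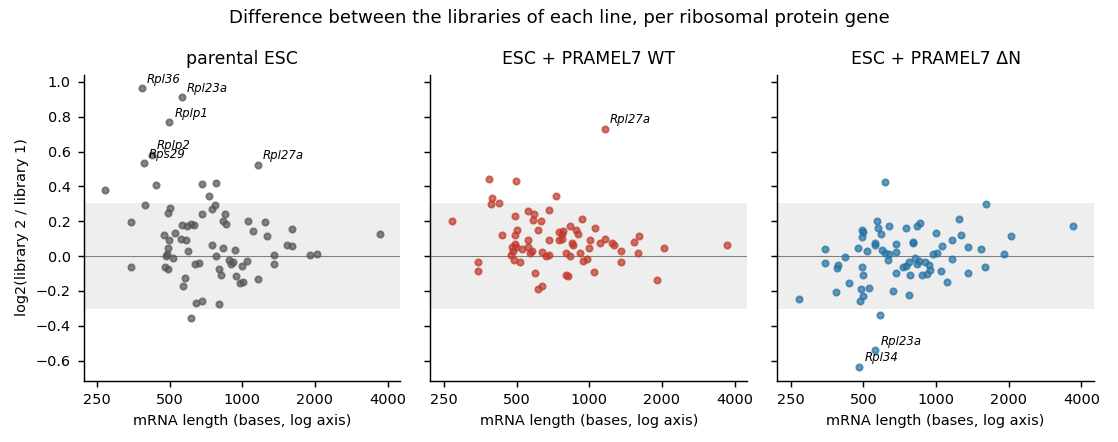
Log2 ratio of library 2 to library 1 in each line against mRNA length (log axis), 1 point for each of 73 members, with the range of ±0.3 shaded and members past 0.5 named. Parental ESCs have 12 members outside the shaded range and 11 of them lie above it, while 29.2% of all genes tested are as far apart in that line.

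The next comparison asked whether the truncated protein was followed by the same changes; it uses the same parental libraries. Against parental ESCs, 3 of the 75 members rose in ESC + PRAMEL7 ΔN (4%, with 6.3% of all genes) and 2 fell (2.67%, with 13.6% of all genes), so that neither share of calls exceeded the one over all genes. With median-ratio scaling of the libraries 8 members rose and none fell, so the split between the directions depended on the scaling. The shares of all genes under that scaling are not given here. The median log2 fold change of the members was 0.09, against -0.06 over all genes, and 62 of the 75 values were positive. At the limit of 0.58 and an unadjusted p under 0.05, 0 members were higher, with 3.14% of all genes, and 0 lower, with 9.18% of all genes. Both ESC + PRAMEL7 ΔN libraries were above both parental ones for 29 members (38.7%, with 21.6% of all genes) and below them for 7 (9.33%, with 35.4%).

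Rpl32, of the large subunit (chr6:115805505-115808747), rose most. It was at 1275 and 1264 CPM in parental ESCs, 1302 and 1271 CPM in ESC + PRAMEL7 WT and 1731 and 1767 CPM in ESC + PRAMEL7 ΔN. The 4 other libraries were nearly equal and well below. The log2 fold change was 0.46 ± 0.08 (adjusted p = 0.0044), and it passed under all 18 alternatives. In ESC + PRAMEL7 WT it was 0.02 ± 0.08 (adjusted p = 0.885).

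Rpl35 was at 232 and 214 CPM, then 321 and 314 CPM in ESC + PRAMEL7 WT and 286 and 271 CPM in ESC + PRAMEL7 ΔN. Its log2 fold change was 0.51 ± 0.08 with full-length PRAMEL7 (adjusted p = 0.00339) and 0.32 ± 0.08 with the truncated form (adjusted p = 0.0241). Rpl35 shares 66.2% of its exon bases with Wdr38 on the opposite strand, which stayed at or below 0.306 CPM. Rps27 was at 729 and 698 CPM, then 897 and 846 CPM, then 870 and 846 CPM. Its log2 fold change was 0.29 ± 0.08 in ESC + PRAMEL7 WT (adjusted p = 0.0308) and 0.27 ± 0.08 in ESC + PRAMEL7 ΔN (adjusted p = 0.047). These were the members that passed the test in both lines, and the lines share the parental libraries.

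The members that fell were Rpl19 and Rpl27, both of the large subunit. Rpl19 was at 1009 and 1053 CPM in parental ESCs, 918 and 980 CPM in ESC + PRAMEL7 WT and 839 and 805 CPM in ESC + PRAMEL7 ΔN, a log2 fold change of -0.33 ± 0.08 for the truncated form (adjusted p = 0.023). Rpl27 was at 415 and 471 CPM, then 387 and 430 CPM, then 357 and 361 CPM, with -0.30 ± 0.09 (adjusted p = 0.0497). Rpl27 lost the call in 13 of 18 alternatives and Rps27 in 12, whereas Rpl19 lost it in 9.

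Rpl19 and Rpl27 lie on chromosome 11, and Rpl32 on chromosome 6, where the transgene was inserted. On chromosome 11 all 7 members, Rpl19, Rpl23, Rpl23a, Rpl26, Rpl27, Rpl38 and Rps27a, had negative values in both lines. Their median log2 fold change was -0.12 in ESC + PRAMEL7 WT, with none called by limma and 1, Rpl23, at an unadjusted p under 0.05, and -0.29 in ESC + PRAMEL7 ΔN. Called lower were 0 of the 7 members in ESC + PRAMEL7 WT and 2 in ESC + PRAMEL7 ΔN. Of the 1104 genes tested on chromosome 11, 504 and 433 were called lower. These 1104 genes had medians of -0.36 and -0.33. In ESC + PRAMEL7 WT the members of chromosome 11 were thus less low than the chromosome's median gene. On chromosome 6 the 603 genes tested had a median of -0.26 in ESC + PRAMEL7 WT and 0.25 in ESC + PRAMEL7 ΔN, beside 0.02 and 0.46 for Rpl32. Of these 603 genes, 22 were called higher and 189 lower in ESC + PRAMEL7 WT. In ESC + PRAMEL7 ΔN 185 were called higher and 103 lower. Rpl23, another protein that binds Mdm2, was at 962 and 1105 CPM, then 791 and 885 CPM, then 827 and 861 CPM, and its log2 fold change in ESC + PRAMEL7 WT was -0.30 ± 0.10 (adjusted p = 0.0503).

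The 4 members on the X chromosome did not move as 1 group. Beside Rps4x, Rpl10, a protein added late in the maturation of the large subunit, had 0.09 (adjusted p = 0.474) in ESC + PRAMEL7 WT. There Rpl36a had 0.17 (adjusted p = 0.208) and Rpl39 had 0.12 (adjusted p = 0.588). The 449 genes tested on the chromosome had a median of -0.17, with 47 called higher and 108 lower. Outside chromosomes 6, 11 and X, 25 of 63 members rose in ESC + PRAMEL7 WT with a median of 0.31 and 61 positive values, and 2 of 63 rose in ESC + PRAMEL7 ΔN with a median of 0.10 and 57 positive values. Over all genes tested, with these chromosomes included, 8.69% rose in ESC + PRAMEL7 WT and 6.3% in ESC + PRAMEL7 ΔN. The shares of all genes outside these chromosomes were not computed. The part of these chromosome-wide shifts in the calls was not tested.

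**Figure D5:**
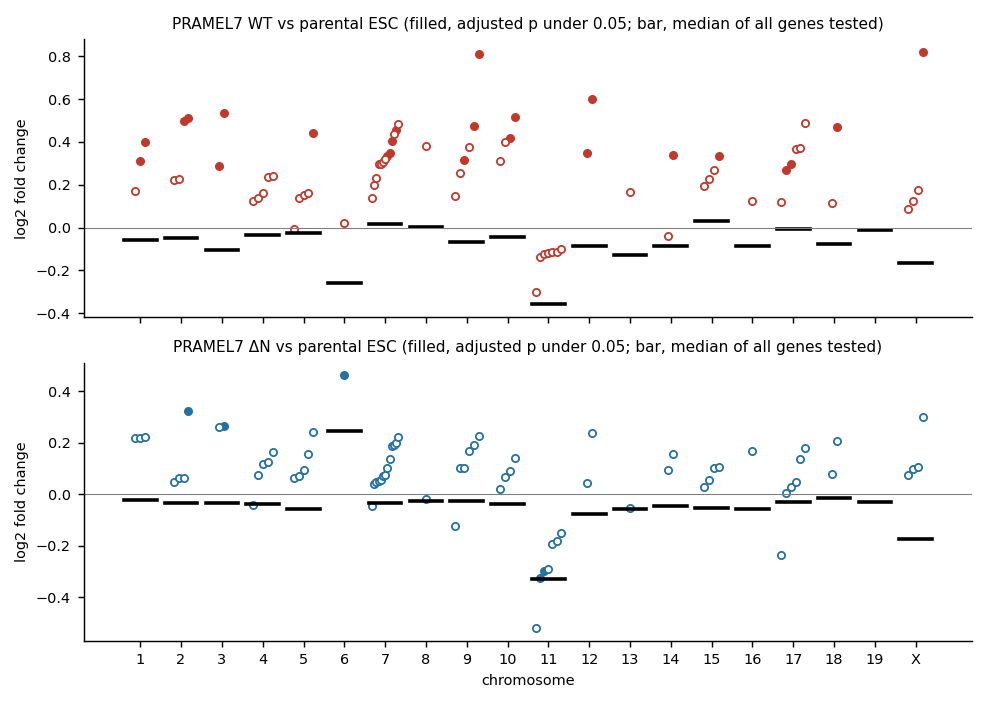
Log2 fold change of 73 members tested, by chromosome, in ESC + PRAMEL7 WT above and ESC + PRAMEL7 ΔN below, both against parental ESCs; filled points have an adjusted p under 0.05 and black bars mark the median of all genes tested on that chromosome. The 7 members on chromosome 11 lie below 0 in both panels, where the black bars stand at -0.36 and -0.33.

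In the direct comparison of the PRAMEL7 lines the parental libraries enter the estimate of the spread, and so the p-values, but not the difference itself. In ESC + PRAMEL7 WT 10 of 75 members were higher than in ESC + PRAMEL7 ΔN (13.3%, with 10.9% of all genes) and 1, Rpl32, was lower (1.33%, with 9.5% of all genes). The share of members called higher was thus close to that of all genes. On chromosome 6, which carries Rpl32, the 603 genes tested had a median of -0.39 in this comparison, beside -0.44 for Rpl32. The median log2 difference was 0.18 over the members and -0.02 over all genes, with 66 of 75 values positive. Both ESC + PRAMEL7 WT libraries were above both ESC + PRAMEL7 ΔN ones for 47 members (62.7%, with 33.2% of all genes) and below for 3 (4%, with 35.6%). With the limit of 0.58 at an unadjusted p under 0.05, 3 members were higher, with 7.23% of all genes, and 0 lower, with 5.27% of all genes. Rplp1 (0.93 ± 0.22, adjusted p = 0.0164), Rps4x (0.71 ± 0.09, adjusted p = 0.000806), Rps29 (0.56 ± 0.16, adjusted p = 0.0362) and Rps21 (0.43 ± 0.13, adjusted p = 0.0406) were among those that differed most. Rps21 was at 380 and 467 CPM in parental ESCs, 530 and 668 CPM in ESC + PRAMEL7 WT and 449 and 433 CPM in ESC + PRAMEL7 ΔN. With only the 4 libraries of these lines fitted, 31 members were higher, and fewer were without library 2 of ESC + PRAMEL7 ΔN. The shares of all genes in these fits are not given here.

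By mean level, ESC + PRAMEL7 WT was the highest of the 3 lines for 60 of the 75 members, ESC + PRAMEL7 ΔN for 8 and parental ESCs for 7. The most frequent order, ESC + PRAMEL7 WT above ESC + PRAMEL7 ΔN above parental ESCs, held for 53 members. Many neighbours in these orders did not differ beyond the spread of their libraries. The orders were not counted over all genes, so these counts cannot be read as particular to the members.

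Genes with related symbols that did not match the rule for members, mostly paralogues of a member, were listed separately. Of these 11 genes 10 were tested. Whether they replace a member in the ribosome was not measured. Rps3a1, which is on the list but has no counterpart among the members, had a log2 fold change of -0.03 in ESC + PRAMEL7 WT and passed the test in neither line. In ESC + PRAMEL7 WT 3 of the 10 rose (Rpl39l, Rpl10l and Rpl36al) and 0 fell, beside 8.69% and 16.3% of all genes. The median log2 fold change over the list was 0.33 there. In ESC + PRAMEL7 ΔN 0 rose and 2 fell, beside 6.3% and 13.6% of all genes. Rpl36al was at a few CPM, close to the filter of 1 CPM, and passed the test narrowly (adjusted p = 0.0486). Rpl39l, an autosomal copy of X-linked Rpl39 used in the male germ line, was at 23.7 and 20.0 CPM in parental ESCs, 51.5 and 54.5 CPM in ESC + PRAMEL7 WT and 2.25 and 2.79 CPM in ESC + PRAMEL7 ΔN. Its log2 fold change was 1.25 ± 0.14 (adjusted p = 0.000942) and -2.70 ± 0.14 (adjusted p = 5.42e-06). Rpl10l, the autosomal copy of X-linked Rpl10 that takes its place in male meiosis, was at 32.1 and 40.6 CPM, then 77.6 and 83.4 CPM, then 21.6 and 23.6 CPM. Its log2 fold change was 1.13 ± 0.13 (adjusted p = 0.000906) and -0.65 ± 0.13 (adjusted p = 0.00702). The lines did not overlap for either gene, and the members they derive from, Rpl39 and Rpl10, passed the test in neither line. Rpl39 was at 305 and 238 CPM, then 313 and 275 CPM, then 286 and 384 CPM. Averaged over the libraries, Rpl39l stood at 46.9 CPM per kilobase of mRNA against 490 for Rpl39, and Rpl10l at 45.5 against 1287 for Rpl10.

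Rps4l, a copy of Rps4x on chromosome 6, was at 285 and 427 CPM, then 413 and 520 CPM, then 435 and 398 CPM, and passed the test in neither line (adjusted p = 0.11 and 0.349). The paralogues of Rpl3, Rpl7 and Rpl22 did not pass either, nor did those 3 members, whose log2 fold changes in ESC + PRAMEL7 WT were 0.23, 0.17 and 0.24. Of ribosomal proteins whose genes have other names, Fau, a fusion of a ubiquitin-like protein with a small-subunit protein, rose in ESC + PRAMEL7 WT by 0.60 ± 0.15 on the log2 scale (adjusted p = 0.0185). Rack1, a scaffold on the small subunit encoded on chromosome 11, had 0.01 (adjusted p = 0.964) in ESC + PRAMEL7 WT and fell by 0.28 in ESC + PRAMEL7 ΔN (adjusted p = 0.049).

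Other genes of the ribosome and translation pathway are given by their counts, beside 8.69% of all genes higher and 16.3% lower in ESC + PRAMEL7 WT. In ESC + PRAMEL7 ΔN 6.3% of all genes were higher and 13.6% lower. Of 76 ribosome biogenesis factors tested, 2 rose and 12 fell in ESC + PRAMEL7 WT, with a median of -0.06, and 6 rose and 5 fell in ESC + PRAMEL7 ΔN. Among them Eif6 and Fbl, the methyltransferase of box C/D snoRNPs, rose in ESC + PRAMEL7 WT (0.33 and 0.28), while Utp18 on chromosome 11 and the helicase Ddx10 had -0.65 each. In ESC + PRAMEL7 ΔN the largest rises were those of Nop2 (0.59), Emg1 (0.58) and Ddx47 (0.55), all on chromosome 6. Of 15 genes of RNA polymerase I and its factors, 1 rose (Polr1c) and 2 fell (Polr1d and Taf1b) in ESC + PRAMEL7 WT, with a median of -0.03. Of 77 mitochondrial ribosomal proteins tested, 1 rose (Mrpl54) and 7 fell in ESC + PRAMEL7 WT, with a median of -0.01, and 3 rose and 13 fell in ESC + PRAMEL7 ΔN.

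Further lists held other TOP mRNAs. Of 11 elongation factors and further TOP mRNAs, 9 had positive values in ESC + PRAMEL7 WT with a median of 0.18, but 1 rose (Eef1d, 0.30 ± 0.08, adjusted p = 0.0287). The most abundant, Eef1a1, had 0.16 ± 0.10 (adjusted p = 0.281). All 7 snoRNA host genes with TOP starts that were tested had positive values, with a median of 0.26, and 1 rose, Gas5 (0.53 ± 0.14, adjusted p = 0.0265). Of 35 initiation factors, 4 rose and 3 fell in ESC + PRAMEL7 WT with a median of 0.01. Eif2s3x, on the X chromosome, rose most (0.70 ± 0.09, adjusted p = 0.00121), followed by Eif3k on chromosome 7 (0.52 ± 0.09, adjusted p = 0.00365).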

How the data were processed

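Poly(A) RNA of 6 libraries (3 lines, 2 dishes each) was prepared with an unstranded kit and sequenced as single-end reads. The authors removed ribosomal reads (SortMeRNA), trimmed, mapped with STAR to mm10 and counted exon coverage per gene; the submitters' processing notes list Bowtie2 2.3.4.3 and Subread 1.4.6-p4. The authors deposited RPKM values per gene and library, together with their own fold changes and p-values, which were not used. The deposited mean read signal (a mean over libraries after size factors) served only to check the gene length behind the RPKM: it matched the whole gene span, introns included, within 10% for 98.3% of 13627 and 98.2% of 13630 genes, and 234 genes, among them Rps14 and Rpl17, took the length implied by it.

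RPKM times that length, scaled by 1 constant to a mean library total of 1000000, gave CPM for 47940 of 50978 rows; 2862 rows had no single match in GENCODE vM21 and 176 were repeated or turned into dates. Between 98.2% and 98.5% of values of up to 20 reads in a library lay within 0.1 of a whole read, so depth was recovered. The filter kept genes exceeding 1 CPM in 2 or more libraries. Values of log2(CPM + 1) were fitted with limma 3.58.1 (R 4.3.3), its trend option on and the 3 lines together, and p-values were adjusted over all 12921 genes (Benjamini-Hochberg, call at 0.05). Fold changes on this scale understate changes of low genes, and the more so the lower the level. This holds for Rpl36al and for Rpl39l in ESC + PRAMEL7 ΔN, which were at a few CPM. Only the filter and the limma fit were tested on simulated data with known changes. The spread between the simulated libraries was assumed and not taken from these libraries. The conversion of RPKM to CPM was not part of that test. SE is the standard error from this fit; SD is over 2 libraries.

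Members named were, for each comparison and direction, up to 5 with the largest change among those called and not overlapping. Also named were the stalk genes and Rpsa, members on chromosomes 6, 11 and X, and those with a listed paralogue. The 3 highest and 3 lowest per kilobase and 6 picked for their known roles completed the rule. Other members were named after their values were seen. The members, lists and motifs were chosen with earlier results of these data known. mRNA length was that of the shortest complete principal transcript. Alternatives changed the pseudocount, filter, scaling, trend, fit, unit or call rule, corrected for GC content and length, added a replicate block or left out a library. Values of 2 members are not reported here, although counts, medians and shares of reads include them. The ChIP libraries were not analysed here.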

Additional observations from a re-analysis of the deposited data

Results flagged for a closer look

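The levels of 10 members given here differed between ESC + PRAMEL7 WT and ESC + PRAMEL7 ΔN in the direct test (limma, adjusted over all genes). Of the 75 members tested 13.3% were higher and 1.33% lower, against 10.9% and 9.5% of all genes. Members were thus not called more often than other genes in both directions. The lines came from single cells, so these differences cannot be told apart from differences between clones. On the log2 scale the differences were 0.93 for Rplp1, 0.71 for Rps4x, 0.56 for Rps29, 0.43 for Rps21, 0.43 for Rpl41, 0.37 for Rpsa, 0.33 for Rps16, 0.29 for Rplp0 and 0.27 for Rpl13a, and in each of these the ESC + PRAMEL7 WT libraries were both the higher ones. For Rpl32 the difference was -0.44, with both ESC + PRAMEL7 ΔN libraries above. Rpl32 lies on chromosome 6, where the 603 genes tested had a median of -0.39 in this comparison and 286 were called lower. The part of this chromosome-wide shift in the Rpl32 difference was not tested. Rps4x passed the threshold under all 18 alternatives, and Rpl32 under 15, whereas Rpl13a passed under 8 and Rpl41 under 7. Pramel7 mRNA was at 52.0 and 47.0 CPM in ESC + PRAMEL7 WT and at 404 and 438 CPM in ESC + PRAMEL7 ΔN, and the level and the truncation of the transgene cannot be told apart. No line had the 4 libraries that a test for a single outlying sample needs.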

How the results depend on the processing

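The median log2 fold change of the members was positive in all 3 comparisons under every alternative run. In ESC + PRAMEL7 WT against parental ESCs it was 0.39 with median-ratio scaling and 0.13 after correction for GC content and mRNA length, which also left 0.071 between the PRAMEL7 lines. The number of members called was less stable, and apart from the smaller number of libraries in some fits the cause was not tested. The shares and medians of all genes under the alternatives are not given here. No count or median under an alternative can therefore be read as particular to the members. For ESC + PRAMEL7 WT against parental ESCs, 7 members rose with no filter on low values, 46 with median-ratio scaling, 10 without the trend, 9 on unconverted RPKM, 16 after the GC and length correction and 3 with the fold limit; 1 fell with a pseudocount of 0.1, a filter of 10 CPM, the replicate block, quantile scaling or voom, and 4 after the GC and length correction. For ESC + PRAMEL7 ΔN against parental ESCs, 1 member rose and 0 fell with no filter, with the compared lines alone, without the trend or on unconverted RPKM; 8 rose and 0 fell with median-ratio scaling; 0 rose and 0 fell with the fold limit; 1 fell with a pseudocount of 0.1 or 5 or a filter of 10 CPM, 4 after the GC and length correction and 0 outside chromosomes 6, 11 and X. That last setting was chosen after seeing the data. Between the PRAMEL7 lines, 2 members were higher in ESC + PRAMEL7 WT with no filter or on unconverted RPKM, 31 with the compared lines alone, 6 with quantile scaling, 3 without the trend or with the fold limit; 0 were lower with the fold limit or outside chromosomes 6, 11 and X.

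Leaving out 1 library, with the lone library of that line assumed to vary like the others, gave 3 to 41 members higher and 0 to 2 lower in ESC + PRAMEL7 WT against parental ESCs, 1 to 10 higher and 0 to 7 lower in ESC + PRAMEL7 ΔN against parental ESCs, and 1 to 31 higher and 0 to 1 lower between the PRAMEL7 lines. The share of reads in ESC + PRAMEL7 ΔN was 7.50% with named pseudogenes added. Rps10 changed sign after the GC and length correction, to -0.0078. No other of the 42 calls on single members reversed under any alternative.

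The labels number the libraries of each line without saying that a number marks a shared batch. Deviations of same-numbered libraries correlated over all genes with 0.210 for parental ESCs and ESC + PRAMEL7 WT, -0.249 for parental ESCs and ESC + PRAMEL7 ΔN and -0.106 for the PRAMEL7 lines, and over the 75 members alone with 0.723, -0.389 and -0.231. With 2 numbers, and signs that differ between the pairs of lines, the samples were not treated as paired. With the replicate block 30 members rose and 1 fell in ESC + PRAMEL7 WT, 2 rose and 3 fell in ESC + PRAMEL7 ΔN, and 9 were higher and 1 lower between the PRAMEL7 lines. With 2 libraries a line, fewer than 3 residual degrees of freedom remain once a library is left out. The part of read depth in the precision was not tested.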
